A study of Mus musculus with 10 samples.

Results

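Keratins are the intermediate filament proteins of epithelial cells, and this report describes 10 of them in the tissue behind the mouse retina, labelled RPE/choroid/sclera (RPE is the retinal pigment epithelium). The 10 genes were chosen by name from the 26360 genes of the deposited table. They are Krt12 of the corneal epithelium, Krt4, Krt13 and Krt19 of the conjunctiva, Krt5, Krt14 and Krt15 of basal epithelial layers, Krt6a, and the simple epithelium pair Krt8 and Krt18. Each name had 1 row, and all 10 genes had a mean of at least 1 CPM (read count scaled to a common library total), the level required for testing.

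The series holds 10 libraries, 1 from the right eye (n = 5) and 1 from the left eye (n = 5) of animals numbered 61, 64, 65, 66 and 68 in the sample titles. All animals were wild-type C57BL/6J mice of postnatal day 34. All had been anaesthetised with ketamine and xylazine on postnatal day 24 to attach a goggle, whose -20 D lens was worn over one eye for 10 days, while the fellow eye had no lens. The labels analysed here name the side of each eye but not the side of the lens, so a difference between right and left eyes has no treatment direction.

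A keratin filament is built from pairs of an acidic type I and a basic type II chain, and epithelia are told apart by the pairs they make. Krt5 pairs with Krt14 in the dividing basal layer, Krt4 pairs with Krt13 in wet stratified mucosa such as the conjunctiva, and Krt8 pairs with Krt18 in single-layered epithelia. Krt12 is made by the differentiated corneal epithelium, and mutations of its human counterpart cause Meesmann corneal dystrophy. The cornea and conjunctiva cover the front of the eye and meet at the limbus, and the sclera and choroid have no stratified epithelium of their own.

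The low values of the table imply library totals of 66.8 M to 94.0 M reads, of which the listed genes took 42.7% to 47.1%, so that 3 reads correspond to 0.0319 to 0.0449 CPM. RPE and scleral genes were abundant in all libraries, with the visual cycle enzyme Rpe65 at 677 to 937 CPM in right and 649 to 820.1 CPM in left eyes, and the collagen gene Col1a1 at 1550 to 2694 CPM in right and 1660 to 2739 CPM in left eyes. Transcripts of neighbouring tissue were present in all libraries too. The summed rod list (10 genes) ran from 134 to 1978 CPM in right and from 222 to 934 CPM in left eyes, the lens list (17 genes) from 223 to 1114 and from 179 to 611 CPM, and the skeletal muscle list (12 genes) from 3601 to 7495 and from 2009 to 9316 CPM.

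Krt12 varied most of the 10 keratins. Its gene lies on chromosome 11 from 99415666 to 99422259 (minus strand, GRCm38) and overlaps A830036E02Rik on the opposite strand, and whether the counting used strand is unknown here. In right eyes it stood at 59.1, 23.6, 0.934, 0.720 and 15.7 CPM in animals 61, 64, 65, 66 and 68, against 4.76, 137, 115, 173 and 1.996 CPM in the left eyes of the same animals. Right and left eyes overlapped, and both held libraries with high and with very low levels. Fellow eyes differed in opposite directions: the right eye was lower than the left by 5.82-fold in animal 64, 123-fold in animal 65 and 240.6-fold in animal 66, and higher by 12.4-fold in animal 61 and 7.87-fold in animal 68. The lowest level, in the right eye of animal 66, still corresponds to 62.9 implied reads. In bulk tissue of this kind, fewer cells of a type and less RNA per cell cannot be told apart.

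Across the 10 libraries Krt12 ranged over 7.51 on the log2 scale, using log2(CPM + 0.230), as for all log2 levels and differences below except those of ratios, which were taken from CPM with no pseudocount. The median range of the 15414 genes tested was 0.49, and only 2 of them ranged more widely, the sex-linked genes Xist (9.57) and Ddx3y (7.76), which were looked up after this count was seen. The remaining keratins of stratified epithelium ranged over 2.59 (Krt19) to 3.40 (Krt6a), a width exceeded by 2.12% to 0.830% of genes. Krt8 and Krt18 ranged over 0.70 and 0.69, which 27.0% and 27.7% of genes exceeded.

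Because Krt12 and the conjunctival and basal keratins parted in several libraries, the 250 bases upstream of the annotated start are shown for the 3 genes of these classes whose RefSeq promoter entry (GRCm38.p6) lies at, or within 7 bases of, the gene's start in the deposited table, with the sequence read along the gene's strand, here minus for all. Entries were found for 6 of the 10 genes. Capitals mark the letters CACCC on either strand, which KLF and Sp factors can bind, and TATAAA, the TATA box, on either strand.
Krt12, chr11:99422260-99422509: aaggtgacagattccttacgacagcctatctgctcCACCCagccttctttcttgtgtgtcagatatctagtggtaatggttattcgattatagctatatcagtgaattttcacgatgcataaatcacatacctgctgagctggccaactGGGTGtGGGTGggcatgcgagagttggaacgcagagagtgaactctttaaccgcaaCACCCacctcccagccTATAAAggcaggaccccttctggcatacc
Krt13, chr11:100121567-100121816: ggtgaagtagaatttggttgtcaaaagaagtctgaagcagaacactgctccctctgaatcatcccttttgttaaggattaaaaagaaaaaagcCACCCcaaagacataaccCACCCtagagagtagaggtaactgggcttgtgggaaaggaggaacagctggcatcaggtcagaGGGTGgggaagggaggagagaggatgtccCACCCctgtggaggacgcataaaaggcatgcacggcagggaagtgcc
Krt5, chr15:101712906-101713155: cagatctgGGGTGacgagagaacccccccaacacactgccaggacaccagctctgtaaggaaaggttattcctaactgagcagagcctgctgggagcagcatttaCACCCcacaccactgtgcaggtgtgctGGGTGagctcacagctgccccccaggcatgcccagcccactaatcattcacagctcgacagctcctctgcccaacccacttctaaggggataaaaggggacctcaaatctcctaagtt
CACCC occurred 4 times in the Krt12 window, 4 times in that of Krt13 and 3 times in that of Krt5, and at least once in 52.0% of 32851 promoter windows of this length. The exact letters TATAAA were found only in the Krt12 window among these 3, starting 29 bases upstream of the start, and 12.4% of all windows hold them. Near their ends the Krt13 and Krt5 windows hold the similar letters CATAAA and GATAAA, which this search did not count. A TATA box in those windows is therefore not excluded. The AP-2 motif GCCNNNGGC was in none of the 3 windows and in 13.7% of all.

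Of the conjunctival keratins, Krt13 and Krt4 had similar patterns over the libraries. Krt13 (chromosome 11, 100117327 to 100121566, minus strand, GRCm38) stood at 75.1, 19.3, 7.41, 20.5 and 13.0 CPM in the right eyes of animals 61, 64, 65, 66 and 68, against 26.6, 31.8, 35.6, 64.2 and 56.5 CPM in their left eyes. Its partner Krt4 (chromosome 15, 101918535 to 101924735, minus strand) stood at 73.2, 19.4, 10.6, 21.8 and 15.6 CPM in right eyes, against 28.7, 26.5, 29.1, 51.7 and 63.2 CPM in left eyes. For both genes the right eye of animal 61 was the highest library and the right eye of animal 65 the lowest, and the right eye was the lower one in 4 of 5 animals. Krt19, the short type I keratin of conjunctiva and limbus, which simple and glandular epithelia also make (chromosome 11, 100140810 to 100148665, minus strand), had lower levels, at 15.5, 5.93, 2.78, 3.28 and 5.38 CPM in right eyes, against 7.81, 8.30, 9.05, 16.8 and 17.9 CPM in left eyes. It was lower in the right eye of the same 4 animals, but its highest library was the left eye of animal 68. The basal keratins and Krt6a, described below, had the same direction in each animal, so this direction is not particular to conjunctival keratins.

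Among basal keratins, Krt5 (chromosome 15, 101707070 to 101712898, minus strand) stood at 94.3, 53.4, 15.03, 20.3 and 37.6 CPM in the right eyes of animals 61, 64, 65, 66 and 68, against 38.9, 106, 89.9, 152 and 83.1 CPM in left eyes. Krt15, which marks basal cells of limbus and conjunctiva as well as of other stratified epithelia (chromosome 11, 100131758 to 100135928, minus strand), stood at 175, 82.4, 26.2, 31.6 and 56.2 CPM in right eyes, against 79.1, 113, 97.7, 166 and 145 CPM in left eyes. Krt14, the type I partner of Krt5 (chromosome 11, 100203162 to 100207548, minus strand), stood at 24.2, 10.2, 2.97, 3.86 and 7.56 CPM in right eyes, against 9.88, 14.8, 11.5, 20.9 and 27.3 CPM in left eyes. Right eyes were lower in animals 64, 65, 66 and 68 and higher in animal 61 for all 3 basal keratins, and the groups overlapped for each.

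**Figure D1:**
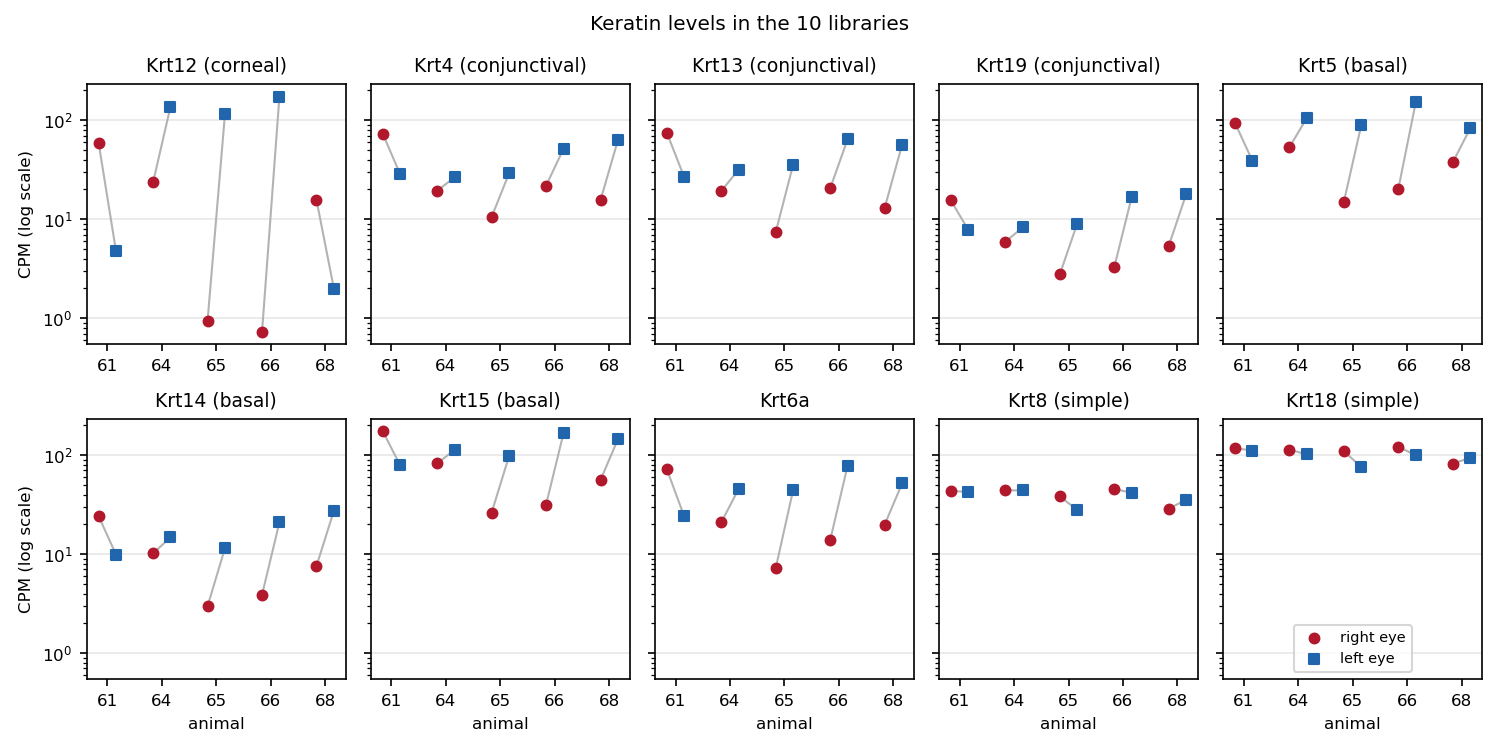
CPM of the 10 keratins (log axis) in the right eye (circle) and left eye (square) of each animal, with fellow eyes joined by a line. Krt12 spans 0.720 to 173 CPM with lines of opposite slope, the other stratified keratins have their lowest value in the right eye of animal 65, and Krt8 and Krt18 span 1.63-fold and 1.61-fold.

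Krt6a, a type II keratin of suprabasal cells that is induced on wounding (chromosome 15, 101689910 to 101694307, minus strand), stood at 72.4, 20.9, 7.21, 13.8 and 19.8 CPM in right eyes, against 24.0, 45.6, 44.4, 78.1 and 51.7 CPM in left eyes. It followed the same order within animals as the conjunctival and basal keratins. Its neighbour Krt6b is a near-identical copy, with 97.8% identity over 1659 aligned coding bases and a longest identical stretch of 280 bases, so reads may be split between them in a way the counting decides, and the level of each is uncertain. The 60-base stretch of coding sequence with the most differences (10) shows where reads can be told apart, at coding bases 817 to 876 counted from the start codon of the GENCODE M21 transcripts, with the differing bases in capitals.
Krt6a: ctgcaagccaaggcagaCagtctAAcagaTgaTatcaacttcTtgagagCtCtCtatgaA
Krt6b: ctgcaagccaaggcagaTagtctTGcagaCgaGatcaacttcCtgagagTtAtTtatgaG
Krt6b was at 7.96 to 74.9 CPM in right and 26.5 to 92.3 CPM in left eyes, and its ratio to Krt6a in CPM stayed between 1.03 and 1.45 over the 10 libraries.

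The simple epithelium pair varied less than the stratified keratins. Krt18 (chromosome 15, 102028180 to 102032027, plus strand) stood at 117, 113, 109.7, 122 and 82.1 CPM in the right eyes of animals 61, 64, 65, 66 and 68, against 111, 102, 75.6, 99.6 and 94.1 CPM in left eyes. Krt8 (chromosome 15, 101996698 to 102004482, minus strand, overlapped by Gm36026 on the other strand) stood at 43.6, 44.2, 38.3, 45.5 and 28.8 CPM in right eyes, against 42.4, 43.9, 28.0, 41.6 and 35.4 CPM in left eyes. Both were lowest in the left eye of animal 65, and each was higher in the right eye of 4 animals. The RPE itself makes this pair. The RPE list of 11 genes, Krt8 and Krt18 included, summed to 5412 to 7156 CPM in right and 5183 to 5826 CPM in left eyes. Part of the Krt8 signal may be shared with the processed pseudogene Krt8-ps, whose 944 aligned bases are 98.5% identical to the Krt8 coding sequence and which was listed at 8.54 to 12.3 CPM in right and 7.45 to 10.6 CPM in left eyes.

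Per kilobase of exon, Krt18 had the highest mean over all 10 libraries, at 75.8 ± 10.9 CPM per kb in right and 67.1 ± 9.19 CPM per kb in left eyes (SD, n = 5 each, here and below). Krt15 followed at 42.0 ± 34.2 CPM per kb in right and 68.1 ± 20.005 CPM per kb in left eyes, and Krt5 at 20.1 ± 14.5 and 42.8 ± 18.6 CPM per kb. Krt12 averaged 10.8 ± 12.9 and 46.7 ± 42.5 CPM per kb, Krt8 20.5 ± 3.51 and 19.5 ± 3.37, Krt13 14.9 ± 15.03 and 23.6 ± 9.03, Krt4 13.2 ± 11.99 and 18.7 ± 7.78, and Krt6a 11.1 ± 10.8 and 20.2 ± 8.04 CPM per kb. Krt14 (5.55 ± 4.88 and 9.60 ± 4.10 CPM per kb) and Krt19 (3.54 ± 2.79 and 6.45 ± 2.66 CPM per kb) were lowest. This order is by the mean over all 10 libraries and differs between the eyes: in left eyes Krt15 lay above Krt18, and Krt12 above Krt5. In right eyes Krt12 lay below Krt8, Krt13, Krt4 and Krt6a, and Krt8 lay slightly above Krt5. The mean ± SD of each gene overlapped that of the next one in both eyes.

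The makeup of the stratified keratins differed from library to library. Of the summed CPM per kb of the 8 genes other than Krt8 and Krt18, Krt12 took 10.6%, 10.5%, 1.35%, 0.662% and 9.72% in the right eyes of animals 61, 64, 65, 66 and 68, against 2.28%, 29.9%, 28.1%, 25.3% and 0.472% in their left eyes. The conjunctival keratins took 18.9% to 39.6% in right and 13.9% to 30.8% in left eyes, and the basal keratins 49.99% to 63.4% and 46.4% to 60.3%. The corneal share did not follow the sum in every library. The smallest sum, 37.4 CPM per kb in the right eye of animal 65, went with a low Krt12 share (1.35%). The largest, 370 CPM per kb in the left eye of animal 66, went with a high one (25.3%). The left eye of animal 68, with the smallest Krt12 share (0.472%), departed from this with a sum of 228 CPM per kb.

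**Figure D2:**
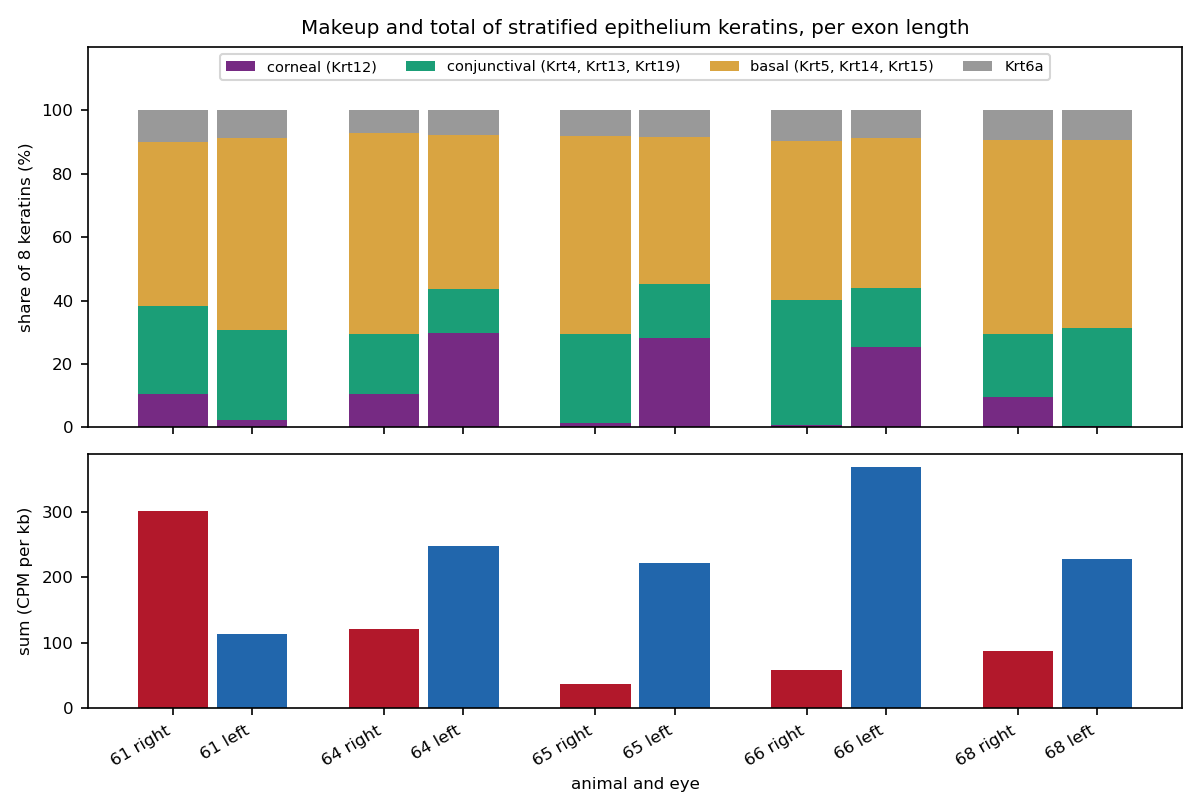
Upper bars give the share of corneal (Krt12), conjunctival, basal and Krt6a transcripts in the summed CPM per kb of the 8 stratified keratins of each library, and lower bars give that sum, with the right eye of each animal on the left. Krt12 takes 25.3% to 29.9% in the left eyes of animals 64, 65 and 66 and 0.472% in the left eye of animal 68, whose sum is 228 CPM per kb.

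Ratios of CPM, used here only to compare libraries with one another, set Krt12 apart from the other classes. The ratio of Krt12 to Krt13 was 0.786, 1.22, 0.126, 0.0351 and 1.21 in the right eyes of animals 61, 64, 65, 66 and 68, against 0.179, 4.32, 3.24, 2.70 and 0.0353 in left eyes, a 123-fold spread. In contrast, the ratio of Krt13 to its partner Krt4 stayed between 0.702 and 1.24, a 1.77-fold spread, and that of Krt14 to Krt15 between 0.113 and 0.188. Within the conjunctival and basal classes the ratios taken spread 1.67-fold (Krt14 to Krt15) to 2.59-fold (Krt19 to Krt13). Across these classes they spread 1.67-fold (Krt14 to Krt19) to 3.36-fold (Krt5 to Krt13), so the ratios did not separate conjunctival from basal keratins. Right minus left, the log2 ratio of Krt12 to Krt13 averaged -1.11 with an SD of 4.71 over the animals (lower in 3 of 5), so the mean is small beside the spread. Animals 61 and 64 had Krt12 and Krt13 differing the same way between eyes, as did animals 65 and 66, whereas in animal 68 the right eye had the higher Krt12 level and the lower Krt13 level.

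Krt5 stood in other proportions to the basal keratins Krt14 and Krt15 where Krt12 was highest. In the left eyes of animals 64, 65 and 66, which had the 3 highest Krt12 levels, the ratio of Krt5 to Krt15 was 0.937, 0.920 and 0.914, while in the other 7 libraries it lay between 0.492 and 0.668. The ratio of Krt14 to Krt5 was 0.140, 0.128 and 0.137 in those 3 libraries and 0.190 to 0.329 in the others, and that of Krt13 to Krt4 was 1.20, 1.23 and 1.24 against 0.702 to 1.03. The ratio of Krt14 to Krt15 was 0.131, 0.118 and 0.126 there, inside the 0.113 to 0.188 of the others. The 3 libraries are all left eyes and were singled out by their Krt12 level, so these ratios are a description without a test. The ratio of Krt18 to Krt8 was higher in the right eye of 5 of 5 animals, by a mean of 0.11 on the log2 scale (SD 0.0497), at 2.57 to 2.87 in right and 2.32 to 2.70 in left eyes, and it was picked out after the values of 20 ratios were seen.

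**Figure D3:**
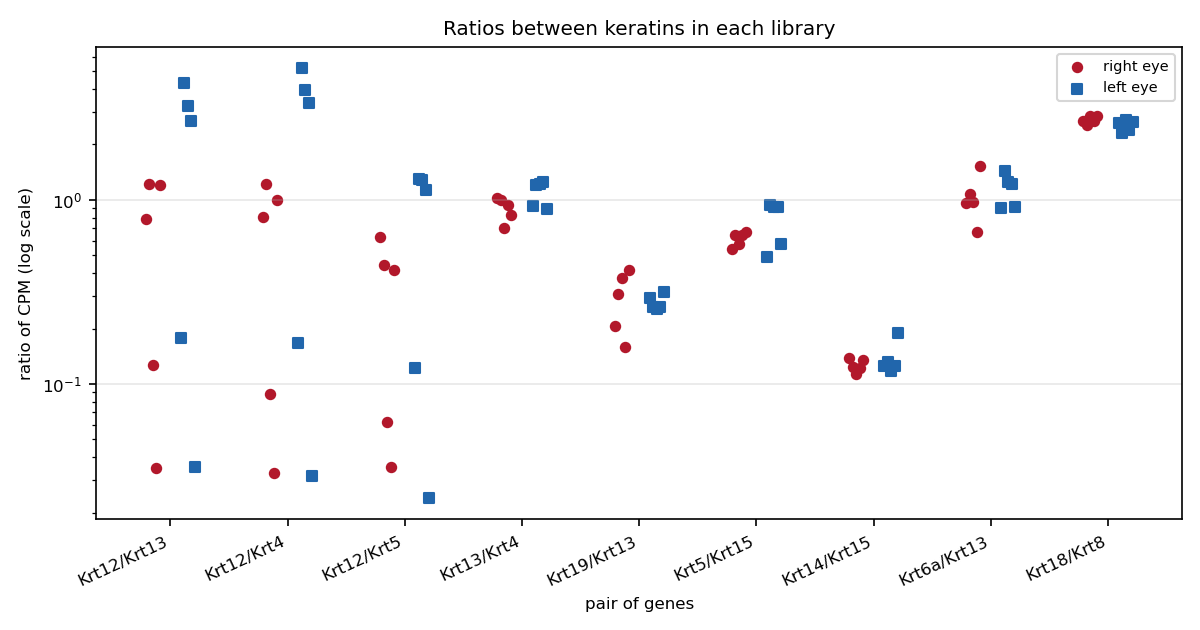
Ratio of CPM between pairs of keratins (log axis) in each right-eye (circle) and left-eye (square) library. Ratios with Krt12 spread over 54.0-fold or more, while Krt13 to Krt4 spreads 1.77-fold and Krt18 to Krt8 1.24-fold.

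Likeness of pattern was measured as the mean absolute difference, over the 10 libraries, between log2 levels centred on each gene's mean, where a smaller value means a closer pattern. The libraries come in pairs from 5 animals, so these values are a description. Krt14 and Krt15 differed by 0.12, Krt13 and Krt4 by 0.20, Krt14 and Krt19 by 0.20, Krt13 and Krt19 by 0.30, and Krt8 and Krt18 by 0.07. The measure is small for genes that vary little: the median over all genes compared was 0.19 for Krt18, against 0.79 for Krt14. The genes closest to Krt18 outside the 10 keratins (0.056 to 0.068) lay nearer to it than Krt8 (0.071), so this value is not particular to the pair. Krt12 was 1.79 from Krt5, its closest member, and 2.15 from Krt13. Krt18 was 0.74 to 2.51 from the stratified keratins.

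Outside the 10 keratins, the 5 genes closest to Krt12 were Lypd2 (0.67), Aqp5 (1.16), Psca (1.21), Slurp1 (1.21) and Fam83a (1.28), against a median of 2.45 over all genes compared. Lypd2, Psca and Slurp1 belong to the Ly6/uPAR protein family, and Aqp5 is a water channel of corneal epithelium and exocrine glands. Lypd2 ran from 0.308 to 7.41 CPM in right and from 0.711 to 22.9 CPM in left eyes, and Aqp5 from 1.03 to 13.1 CPM and from 1.76 to 26.0 CPM. Slurp1 was listed at 0 in at least 1 right eye and reached 4.44 CPM in left eyes. The genes closest to Krt13 were H60c (0.24), the keratins Krt7 (0.26) and Krt78 (0.31), the amino acid transporter Slc6a14 (0.31) and Psapl1 (0.32). Those closest to Krt14 were the alcohol dehydrogenase Adh7 (0.20), the monocarboxylate transporter Slc5a8 (0.21), the desmosomal cadherin Dsg3 (0.21), Pglyrp1 (0.21) and Slc6a14 (0.22).

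The comparison of right with left eyes was fitted with limma over all genes, with the animal as a block. None of the 10 keratins passed an adjusted p of 0.05 (limma with Benjamini-Hochberg adjustment over 15414 genes, adjusted p = 0.9998 for each), and neither did any other gene (0% called). At an unadjusted p under 0.05 limma counted 1 of the 10, Krt19, against 2.79% of all genes (430). Krt19 was lower in the right eye, as were 1.99% of all genes (306) at that p. This count moved with the setting. Krt19 missed that p in 10 of 15 alternative fits, while 7 of the 10 keratins (the stratified ones other than Krt12) passed it without animal 61, where 3.34% of all genes did, and 4 passed without the animal block, where 2.82% did. With limma's adjustment over all genes none of these passed in either fit (smallest adjusted p = 0.421 without animal 61). The median right minus left difference of the 10 was -1.03 on the log2 scale, against -0.01 over all genes tested. A mean difference below 0 was found for 8320 of the 15414 genes tested and for 8 of the 10. The 10 genes were measured in the same libraries, so this count is not one of independent observations.

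Krt12 averaged 20.001 ± 23.9 CPM in right and 86.5 ± 78.6 CPM in left eyes, a log2 difference of -2.05 ± 1.71 (SE; 95% interval -6.07 to 1.97; lower in 3 of 5 animals). This difference was -0.69 without animal 66 and -0.91 without animal 65, and -3.28 without animal 68 and -3.46 without animal 61. Krt5 averaged 44.1 ± 31.8 CPM in right and 94.0 ± 40.9 CPM in left eyes, a log2 difference of -1.26 ± 0.55 (SE; 95% interval -2.55 to 0.02; lower in 4 of 5). Krt13 averaged 27.1 ± 27.4 and 42.9 ± 16.4 CPM, a log2 difference of -1.04 ± 0.51 (SE; 95% interval -2.23 to 0.16). For Krt19 the values were 6.57 ± 5.17 and 11.97 ± 4.94 CPM, with a log2 difference of -1.02 ± 0.43 (SE; 95% interval -2.03 to -0.01). The other stratified keratins lay between -0.76 (Krt4) and -1.20 (Krt6a). Without animal 61, the animal with higher levels in the right eye, the log2 difference was -1.89 for Krt5 (95% interval -2.72 to -1.07), -1.67 for Krt13 (-2.26 to -1.08) and -1.52 for Krt19 (-2.18 to -0.85). With any other animal left out, the interval of each of these genes reached across 0. The differences closest to 0 were -0.85 for Krt5 (without animal 66), -0.74 for Krt13 (without animal 65) and -0.70 for Krt19 (without animal 66). Limma's moderated errors are smaller here than the spread of the animals alone would give, since the SD of the 5 animal differences was 1.29 (Krt19) to 5.16 (Krt12) for the stratified keratins.

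Krt18 averaged 109 ± 15.7 CPM in right and 96.5 ± 13.2 CPM in left eyes, a log2 difference of 0.17 ± 0.10 (SE; 95% interval -0.06 to 0.40). Without animal 68 this difference was 0.26 (95% interval 0.07 to 0.46), with a limma adjusted p of 0.942. Krt8 averaged 40.1 ± 6.88 and 38.3 ± 6.60 CPM, a log2 difference of 0.06 ± 0.10 (SE; 95% interval -0.16 to 0.29), which turned to -0.03 without animal 65. For this pair the intervals leave room for less than a 1.5-fold difference in either direction, while for Krt12 they leave room for differences of many-fold either way.

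**Figure D4:**
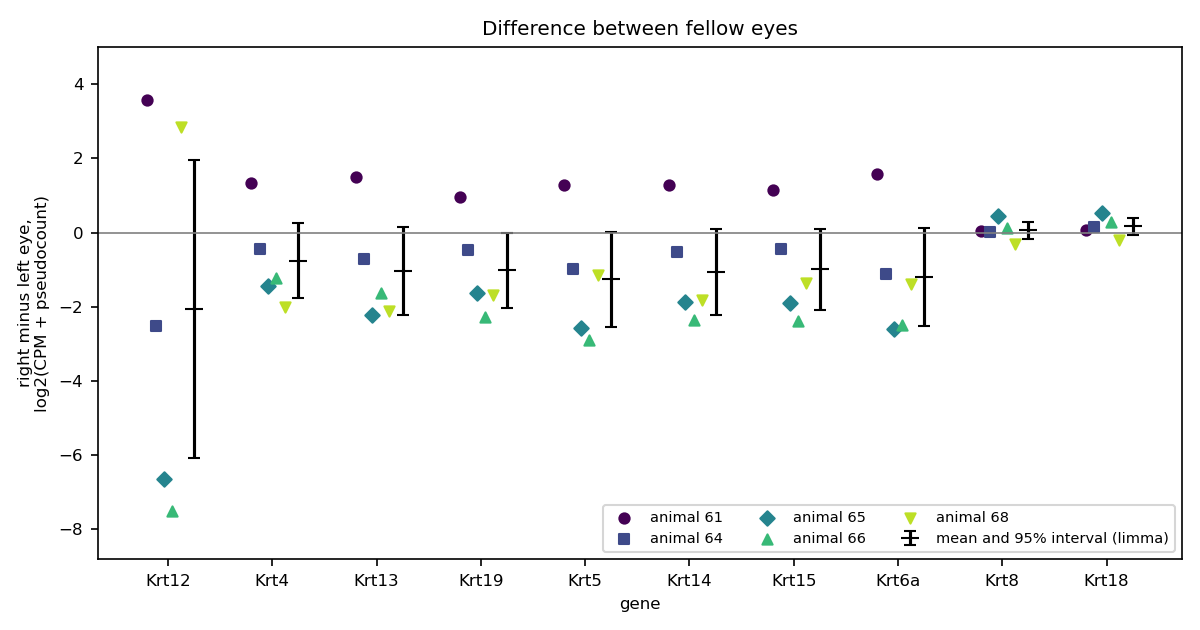
Right minus left difference in log2(CPM + 0.230) for each keratin, with a point per animal and the mean with its 95% interval from limma in black. Animal 61 lies above 0 for the 8 stratified keratins, animal 68 joins it for Krt12, and the intervals of all genes except Krt19 reach across 0.

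Whether eyes of one animal resembled each other more than eyes of different animals was asked with limma's F test of the animal term in the same fit. None of the 10 keratins passed (adjusted p = 0.647 to 0.933 in limma with Benjamini-Hochberg adjustment), where 0.0843% of all genes did (13 of 15414). These 13 include sex-linked genes, among them Ddx3y, Kdm5d, Eif2s3y, Uty and Xist, which were named after the result was seen. Krt12 at 0.934 and 115 CPM in the eyes of animal 65, and at 0.720 and 173 CPM in those of animal 66 (right and left), shows how far fellow eyes could lie apart.

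The rest of the keratin family was mostly low. Of 19 other rows named Krt with a number, 9 had a mean of at least 1 CPM, and the remaining 10 stayed at or below 0.860 CPM in all libraries. Krt7, a conjunctival and glandular keratin, ran from 0.969 to 8.45 CPM in right and from 3.38 to 6.47 CPM in left eyes, and Krt80 from 1.11 to 6.86 CPM and from 4.43 to 8.39 CPM. The suprabasal and appendage keratins Krt17 (0.263 to 3.85 CPM in right and 1.53 to 5.08 CPM in left eyes), Krt78 (0.203 to 1.77 and 0.635 to 2.38 CPM) and Krt75 (0.423 to 2.78 and 0.681 to 2.12 CPM) were lower still. Krt7, Krt17, Krt78 and Krt80 were each lower in the right eye of 4 of 5 animals. Krt23 (2.70 to 4.98 and 2.54 to 4.23 CPM) and Krt222 (1.63 to 2.54 and 1.57 to 2.35 CPM) varied less. The epidermal keratins Krt1 and Krt10 stayed at or below 0.323 and 0.860 CPM, and of 16 hair follicle keratins only 2 were in the table, summing to at most 0.120 CPM in either eye.

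Lists of other genes of these epithelia were set beside the keratins, and no member of any of them passed the test between eyes. Some of the 10 keratins are themselves on these lists (Krt12 on the corneal, Krt4, Krt13 and Krt19 on the conjunctival, Krt5, Krt14 and Krt15 on the basal list). Over all genes tested, 8320 of 15414 lay below 0, and members of a list share the same libraries, so their counts are not independent observations. Averaged over measured members, the corneal list was lower in the right eye of 3 of 5 animals. The conjunctival, basal, desmosome, junction and transcription factor lists were lower there in 4 of 5. In the corneal epithelium list the mean difference was below 0 for 8 of 9 measured members, with a median of -1.03 and sums of 143 to 454 CPM in right and 227 to 748 CPM in left eyes. The corneal crystallin enzyme Aldh3a1, an aldehyde dehydrogenase, averaged 77.9 ± 44.8 CPM in right and 144 ± 73.3 CPM in left eyes, and the pentose phosphate enzyme Tkt 104 ± 22.2 and 135 ± 46.6 CPM. Aldh3a1 spanned 6.24-fold over the libraries where Krt12 spanned 240.6-fold.

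In the conjunctiva and goblet cell list only 6 of 13 genes were measured, and the mean difference was below 0 for all 6, with a median of -0.96. The goblet cell genes Muc5ac and Spdef had means under 1 CPM and are not among the 6, so this count does not describe goblet cells. The membrane mucin Muc4 averaged 27.9 ± 20.1 CPM in right and 47.8 ± 13.9 CPM in left eyes. The goblet cell mucin Muc5ac, by contrast, reached at most 1.25 CPM in right and 0.387 CPM in left eyes, and the goblet cell factor Spdef at most 0.0551 and 0.0747 CPM. The basal and hemidesmosome list had 13 of 14 below 0 (median -0.62). Its most abundant members, the linker proteins Dst (421 ± 13.6 CPM in right and 431 ± 22.7 CPM in left eyes) and Plec (180.3 ± 18.9 and 201 ± 26.8 CPM), are made by many other cells and hardly varied. In the desmosome list 13 of 13 were below 0 (median -0.87), led by desmoplakin, Dsp (63.6 ± 33.7 and 94.1 ± 24.6 CPM), and Perp (32.5 ± 9.92 and 41.4 ± 6.35 CPM).

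For epithelial junctions and splicing, 11 of 11 measured genes lay below 0 (median -0.89). Among them E-cadherin, Cdh1, which the RPE and glia also express, was at 25.9 ± 3.25 CPM in right and 27.9 ± 1.998 CPM in left eyes. The 11 measured epithelial transcription factors had a median of -0.45, with Pax6, the eye regulator that cornea and retina share, at 61.4 ± 22.8 and 81.2 ± 21.7 CPM. Of 9 genes of corneal stroma and endothelium, 4 lay below 0, with a median of 0.00 and summed levels of 2502 to 3385 CPM in right and 2550 to 3226 CPM in left eyes, though its leading members Ptgds and Angptl7 are made by other tissues of the eye wall as well. The medians of the lists lay at 0.18 for the RPE (10 of 10 higher, Krt8 and Krt18 among them), 0.19 for the lens (14 of 17 higher), -0.06 for rods and -0.26 for skeletal muscle, against -0.01 over all genes. The part of these neighbouring tissues in the keratin differences was not tested.

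**Figure D5:**
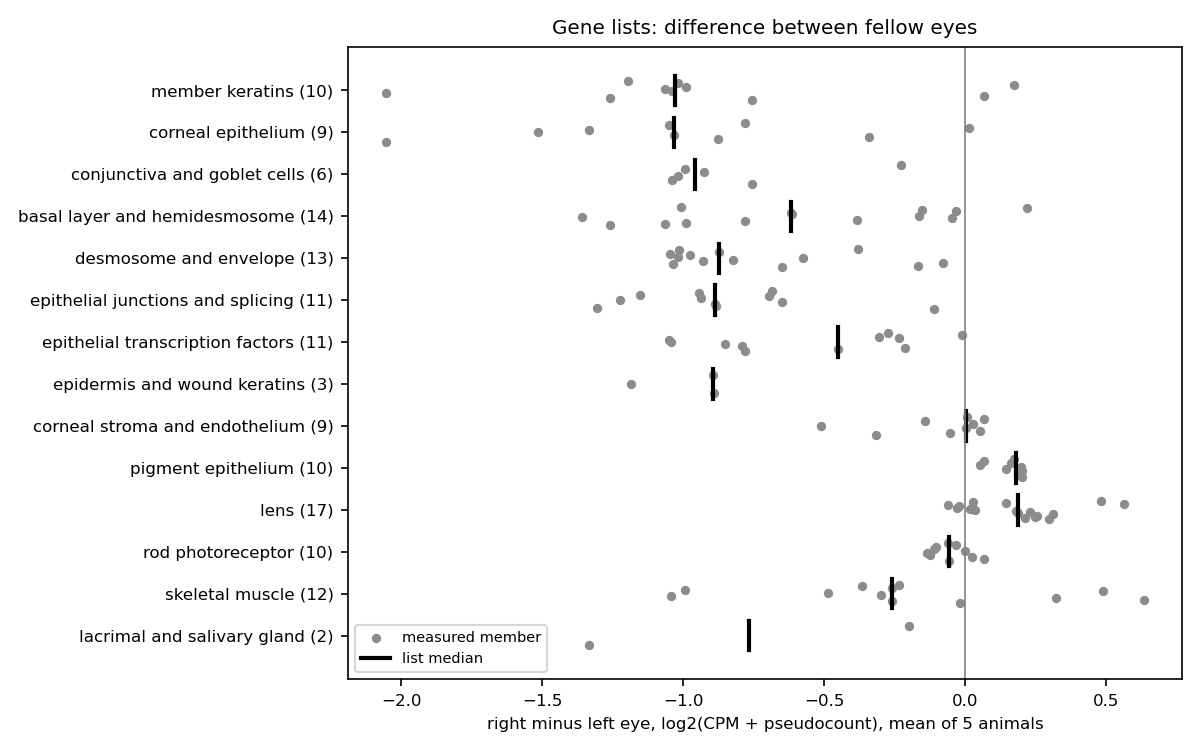
Right minus left difference (log2 scale, mean of 5 animals) of each measured member (grey) and the median (black bar) of each gene list, with the number of measured genes in brackets. Lists of surface epithelium have medians between -1.03 and -0.45, while corneal stroma and endothelium, RPE, lens and rods lie between -0.06 and 0.19. Skeletal muscle lies at -0.26, and the lacrimal and salivary gland list (2 measured genes) at -0.77.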

How the data were processed

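The authors deposited 1 table of normalized values, which behave as CPM once an added constant of 1e-04 is subtracted, as was done here. Per the submitters' processing notes, STAR and Partek were used with the build GRCm38 (mm10). Versions, annotation release and use of strand in counting were not given in the sources used here. Per the labels, a stranded kit was applied to 1 μg of ribosome-depleted total RNA, and the extraction text speaks of retinae although the tissue is labelled as RPE, choroid and sclera.

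A step was sought per library such that low values, up to 20 steps, fall on whole multiples of it. With a tolerance of 0.05 this held for 89.1% to 90.1% of them and gave the implied depth, but whole reads could not be recovered for all genes. Floors in reads cover counting error only. Coordinates are 1-based, with the deposited stop minus 1 as the end, and those of the 10 keratins equal GENCODE M21, from which exon lengths and transcripts were taken. Krt12 and Krt8 each overlap 1 listed gene on the opposite strand, so antisense reads may be part of their values.

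The 15414 genes averaging 1 CPM or more were tested with limma 3.58.1 in R 4.3.3 on log2(CPM + 0.230), with an intensity trend, animal and eye side as terms, Benjamini-Hochberg adjustment at 0.05 and 4 residual degrees of freedom. Differences on this scale understate the change of low genes. The animal was a block because the protocol compares an eye with its fellow and the titles share numbers. Taken over all genes tested, the deviations of fellow eyes gave little support for the pairing. They correlated over 0.1 in only 2 of 5 animals (0.27, 0.11, 0.05, -0.19 and -0.05 in animals 61, 64, 65, 66 and 68). In sex-linked genes, however, fellow eyes were alike. Limma's F test of the animal term gave adjusted p = 3.05e-07 for Ddx3y and 2.01e-05 for Xist, so for these genes the data go with the pairing. All 45 pairs of libraries differed by more than sampling noise (chi-square over its degrees of freedom, 12.01 to 64.5). Plots used matplotlib 3.10.9 (Python 3.11.15).

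The members, the 15 gene lists and the tests were chosen with earlier results of these data known. All 10 keratins are named. Other keratins are named where their mean is at least 1 CPM. The 2 most abundant members of a list may be named (1 of them is not reported here), and for Krt12, Krt13 and Krt14 the 5 genes with the closest pattern. Krt1, Krt10, Muc5ac and Spdef were named after their values were seen or as defining markers. The lacrimal and salivary gland list (2 of 10 genes measured, median -0.77) and the epidermis and wound keratin list (3 of 13 measured, median -0.89) rest on few genes.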

Additional observations from a re-analysis of the deposited data

Results flagged for a closer look

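Among 30 groups of 5 libraries looked at (10 keratins and 5 ratios in each eye), 1 had a library far from the rest, and chance flags about 1 in 20 groups. Krt18 in the right eye of animal 68, at 82.1 CPM, lay below the other right eyes by 0.733 of the whole range of that group on the log2 scale, above the limit of 0.71.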

How the results depend on the processing

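With 15 alternatives, 0 genes were called between right and left eyes by limma in any, the fit without the replicate block included (434 genes at an unadjusted p under 0.05, against 430 with it). Adjusted p of the 10 keratins lay between 0.421 (without animal 61) and 0.9999. The median difference of the 10 keratins was -1.03 also without the replicate block, -0.46 with array weights, and -1.59 to -0.70 with each animal left out. Direction and call were kept by 208 alternative values. With each animal left out, the right minus left difference of Krt8 ran from -0.031 (without animal 65) to 0.16, that of the log2 ratio of Krt13 to Krt12 from -0.18 (without animal 66) to 2.66, and that of Krt5 to Krt12 from -0.14 (without animal 66) to 2.14. The count of genes differing between animals, 13, was 20 with array weights and 5 to 10 with each animal left out (5 without animal 61, 8 without 64, 6 without 68); the cause was not tested. Summing Krt6b into Krt6a and Krt8-ps into Krt8, chosen after seeing the data, changed no direction or call. The lowest library for Krt12 held 62.9 implied reads of it. Titles do not say more of the animals than a number, and p-values measure the spread between these samples.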
